A study of Mus musculus with 38 samples.

Results

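The genes examined were 9 complement components and receptors, C1qa, C1qb, C1qc, C2, C3, C4b, Cfb, C3ar1 and C5ar1, taken by gene symbol from a table of raw read counts of 55487 genes in mouse kidney. RNA was sequenced in 38 libraries that formed 10 groups in 3 experiments on fibroblast growth factor 23 (FGF23), a bone-derived hormone that lowers phosphate reabsorption in the kidney. In the anti-GBM experiment, male C57BL/6JRj mice were immunised with sheep IgG in complete Freund's adjuvant and then received nephrotoxic serum, which carries antibodies to the glomerular basement membrane, or PBS as healthy controls. They were given 6 daily intravenous injections of 1 µg recombinant human FGF23 or of the PBS-BSA vehicle, with the kidneys collected 24 h later at 10 weeks of age. There were 4 libraries in each vehicle group and 3 in each FGF23 group. In the Adriamycin experiment, female BALB/c mice received a single intravenous dose of Adriamycin (doxorubicin, toxic to podocytes) or saline and later a single injection of 1 µg FGF23 or vehicle, with 4 libraries in each of the 4 groups and kidneys taken 24 h after the injection at 10 weeks of age. In the slice experiment, precision-cut slices from male DBA/2J mice fed an adenine diet up to 23 weeks of age were kept in culture with 200 ng/mL FGF23 or vehicle, with 4 libraries each and no slices from disease-free mice. The labels give 1 h for the slice treatment and the study's abstract and results 24 h.

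Several features limit these groups as models. Strain, sex, disease and number of injections differ between the experiments, so tests were made only within an experiment. The adjuvant and the sheep IgG were part of the anti-GBM model and its controls are described as given PBS, so effects of immunisation and of the serum cannot be told apart. Slices have no blood flow, and DBA/2J mice are known to lack functional complement C5. Mice and slices are named here by the numbers they carry in the count table. The labels number each library as a biological replicate. Vehicle slices 1 and 3, and FGF23 slices 2 and 4, had much more similar counts than other slices of their groups. Their chi-square per degree of freedom, a measure of distance between 2 libraries, was 2.911 and 2.023. Other pairs within a slice group were at 9.171 to 39.033. Whether the slice tests rest on fewer independent units than libraries was not tested.

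Complement is a cascade of plasma and cell-bound proteins that tags surfaces for removal and calls in leukocytes. The classical pathway opens when C1q binds antibody on a surface and its partner proteases cleave C4 and C2, the alternative pathway runs on C3 and factor B, and all pathways meet at the cleavage of C3. Most plasma complement is made in the liver, but macrophages make C1q, and tubular cells, mesangial cells and infiltrating leukocytes of an inflamed kidney are known to make C3, C4 and factor B locally.

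Library totals ranged from 13704248 to 23630210 counts in the anti-GBM experiment, from 15665050 to 27583911 in the Adriamycin experiment and from 11186925 to 16254987 in the slices. Libraries held kidney transcripts throughout, and no proximal tubule, distal nephron or podocyte marker listed was at 0 in any group. The summed CPM (counts scaled to a common library total after TMM normalisation, the trimmed mean of M-values) of 5 proximal tubule markers ranged from 26123 to 36064 in healthy C57BL/6 kidneys and from 286 to 690 in the adenine slices. Adipoq, an adipocyte hormone, was above 5 CPM in 5 healthy-mouse libraries, at 17.2 and 26.5 CPM in C57BL/6 mice 3 and 9 and at 8.83, 38.1 and 34.9 CPM in BALB/c mice 1, 9 and 10. For C3, C4b, Cfb and C1qb, values without these libraries are given beside several of the results.

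The 9 genes lie on 4 chromosomes of the GRCm38 assembly, and all are on the minus strand. C1qb (chr4:136880129-136886187), C1qc (chr4:136889804-136893065) and C1qa (chr4:136895917-136898803) are neighbours. C4b (chr17:34728380-34743882), Cfb (chr17:34856374-34862518) and C2 (chr17:34862604-34898265) lie in the major histocompatibility complex, and C3 (chr17:57203970-57228136) lies further along the same chromosome. C3ar1 is at chr6:122847138-122856161 and C5ar1 at chr7:16246743-16259540.

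RefSeq promoter windows, 250 bases before to 50 bases after the start of a gene in GRCm38.p6, were matched for 5 of the 9 genes. The windows of C1qb (chr4:136886151-136886450), C1qc (chr4:136892865-136893164) and C3 (chr17:57228087-57228386), all on the minus strand, are shown because these are the chains that moved together and the component with the largest change in anti-GBM kidneys. Capitals mark the letters GAGGAA, the core of sites bound by the macrophage factor PU.1, or their reverse complement TTCCTC, in the C1q windows, and a match to the C/EBP letters TTGCNNAA in the C3 window.
C1qb: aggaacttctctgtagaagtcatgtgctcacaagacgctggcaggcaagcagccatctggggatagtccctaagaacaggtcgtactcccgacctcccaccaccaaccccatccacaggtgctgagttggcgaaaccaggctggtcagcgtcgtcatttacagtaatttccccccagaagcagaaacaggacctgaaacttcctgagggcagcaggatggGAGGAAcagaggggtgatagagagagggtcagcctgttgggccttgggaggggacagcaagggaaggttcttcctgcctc
C1qc: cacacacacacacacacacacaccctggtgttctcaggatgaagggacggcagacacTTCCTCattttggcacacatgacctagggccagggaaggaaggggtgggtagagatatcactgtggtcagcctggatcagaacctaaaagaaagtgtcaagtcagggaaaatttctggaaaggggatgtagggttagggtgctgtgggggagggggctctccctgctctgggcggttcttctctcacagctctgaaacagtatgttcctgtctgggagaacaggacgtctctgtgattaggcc
C3: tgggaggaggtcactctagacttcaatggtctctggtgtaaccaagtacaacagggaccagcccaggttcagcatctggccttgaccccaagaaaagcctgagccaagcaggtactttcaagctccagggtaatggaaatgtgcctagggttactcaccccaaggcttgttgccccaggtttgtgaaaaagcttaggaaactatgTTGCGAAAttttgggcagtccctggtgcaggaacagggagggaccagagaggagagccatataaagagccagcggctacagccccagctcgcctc
GAGGAA began 30 bases before the C1qb start, and TTCCTC began 193 bases before the C1qc start, which places GAGGAA on the opposite strand. The C3 match, TTGCGAAA, began 45 bases before its start. On either strand, GAGGAA was present in 28.3% of 32851 windows of this length and TTGCNNAA or its reverse complement TTNNGCAA in 10.8%. The C3ar1 window (chr6:122856108-122856407) held TGACTCA, a match to the AP-1 letters TGANTCA found in 7.81% of windows, 22 bases before the start. The NF-kB pattern searched on both strands, found in 1.47% of windows, was in none of the 5. These letters are a description of the windows, and no binding was measured.

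Levels of different genes were set side by side only per kilobase of exon. In healthy C57BL/6 kidneys given vehicle, the order of mean CPM per kb was C1qa at 15.7, C1qb at 14.4, Cfb at 14.1, C3 at 8.75, C1qc at 7.54, C2 at 4.53, C4b at 2.30, C3ar1 at 0.663 and C5ar1 at 0.457. In anti-GBM kidneys given vehicle, C3 stood first at 177 CPM per kb, followed by C1qa at 62.0, C1qb at 61.8, C1qc at 29.6, Cfb at 10.6, C4b at 9.18, C2 at 8.02, C5ar1 at 2.23 and C3ar1 at 1.97. C3 thus moved from the fourth place to the first. Neighbours in these orders such as C1qa and C1qb, or Cfb and C4b in disease, were closer to each other than the spread between mice. In healthy BALB/c kidneys C3 was already first, at 70.0 CPM per kb with vehicle, and in the slices it reached 199 CPM per kb with vehicle. Over its full exon length Cfb was last of the 9 in both slice groups, at 2.88 and 1.76 CPM per kb.

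A limit applies to Cfb and C2. The annotated gene Gm20547 (chr17:34856412-34882042, same strand) shares 79.5% of the exon bases of Cfb and 42.8% of those of C2, and it had 0 counts in all 38 libraries. How reads in shared exons were assigned is not given in the sources used here. If such reads were left out, the Cfb counts rest on the 467 bases of the exon chr17:34862052-34862518 and on 38 and 74 bases of 2 others, out of 2825, and its mean in healthy C57BL/6 kidneys given vehicle would be 68.9 CPM per countable kb. In the slices it would be 14.1 and 8.61, above C2 at 6.74 and 5.88, so that C2 and not Cfb would be last. C4b also has a near-identical neighbour, C4a, and reads that fit both could not be told apart.

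**Figure D1:**
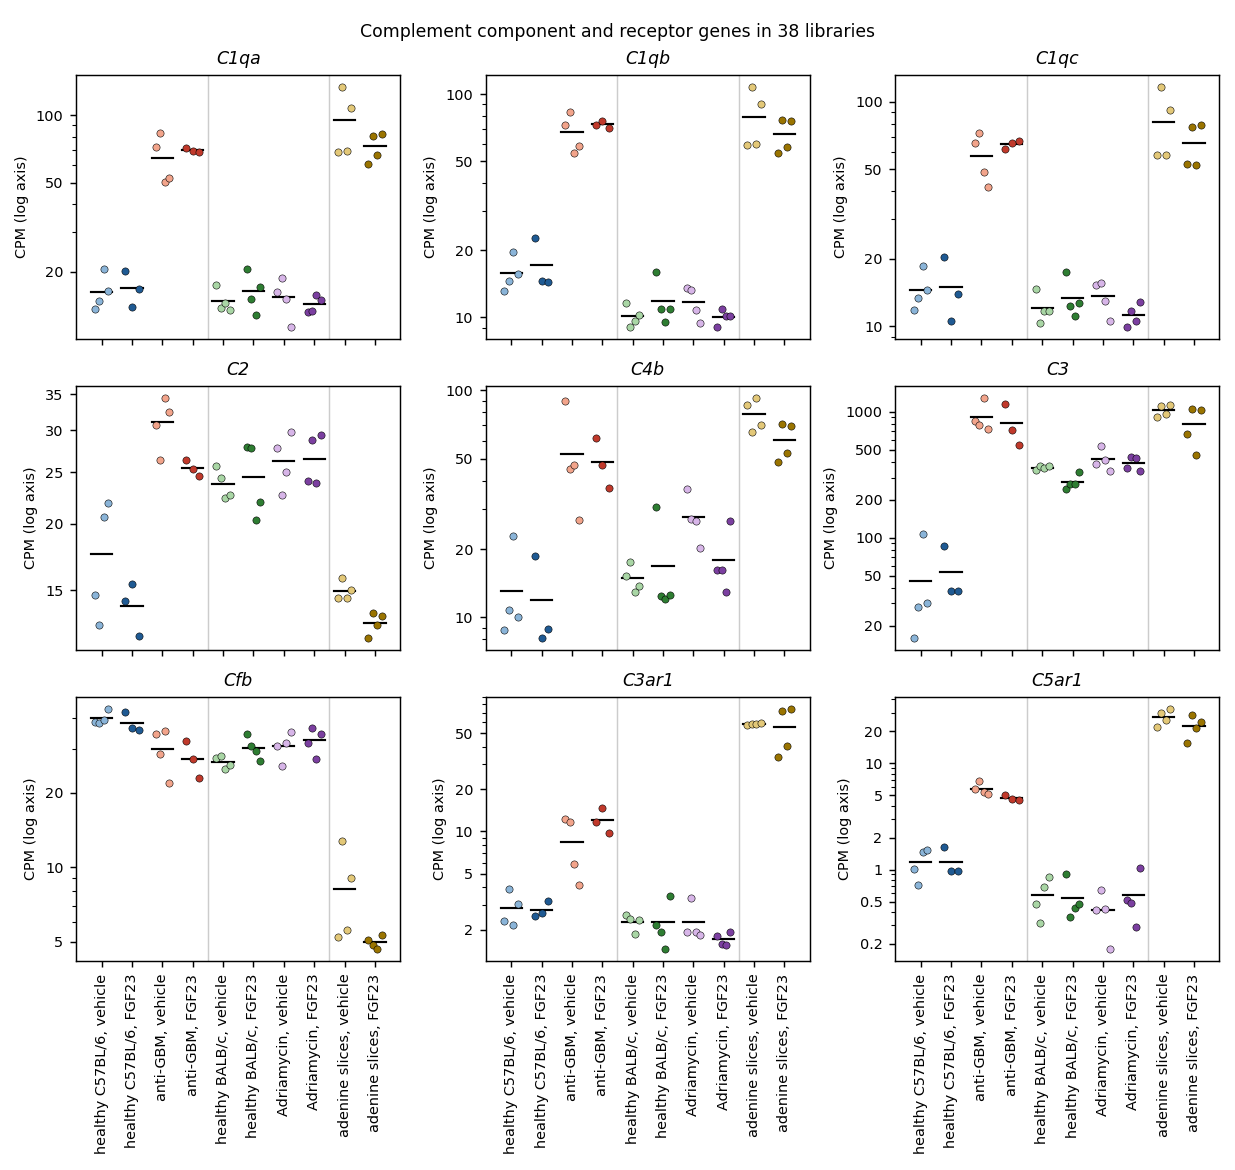
CPM (log axis) of the 9 genes in each of the 38 libraries, 1 point per library, by group, with a line at the group mean. For the C1q chains, C3 and C5ar1 the anti-GBM groups lie well above the healthy C57BL/6 groups, for C2 they lie above by less, and for Cfb below. For C4b and C3ar1 they lie above, but with vehicle the lowest anti-GBM library is close to the highest healthy one. The healthy and Adriamycin groups of BALB/c mice lie close together.

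The first question was how the genes behaved in anti-GBM disease, and the vehicle groups answer it without FGF23. All 9 genes passed the test, 8 higher and 1 lower in anti-GBM kidneys, against 19.4% of all 15859 genes tested that were called higher and 20.4% that were called lower (edgeR quasi-likelihood test, Benjamini-Hochberg adjusted p below 0.05). The median log2 fold change of the 9 genes was 1.98, and that of all genes tested was -0.01. The 9 genes and the marker and complement lists below were chosen with earlier results of these data known. Shares of all genes are therefore given as a description and not as a test of these lists. In bulk kidney RNA, fewer cells of a type and less RNA per cell cannot be told apart, so each difference is one of RNA per kidney sample.

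The 3 C1q chains, which assemble into the antibody-binding unit of the classical pathway, rose about 4-fold. C1qa was at 13.6, 14.9, 20.5 and 16.4 CPM in the 4 healthy mice and at 72.4, 83.1, 50.1 and 52.4 CPM in the 4 anti-GBM mice given vehicle. C1qb was at 13.1, 14.5, 19.7 and 15.6 CPM against 72.6, 83.3, 54.7 and 58.5 CPM, and C1qc at 11.8, 13.4, 18.5 and 14.5 CPM against 65.5, 72.5, 48.9 and 41.8 CPM. Every anti-GBM library was above every healthy one for each chain, as for 17% of all genes tested, and anti-GBM mice 5 and 6 were higher than mice 7 and 8. The log2 fold changes were 1.98 for C1qa (SE 0.17, adjusted p = 3.86e-06), 2.10 for C1qb (SE 0.17, adjusted p = 2.38e-06) and 1.97 for C1qc (SE 0.21, adjusted p = 1.38e-05). In the FGF23 groups the healthy mice were at 20.2, 13.9 and 16.7 CPM and the anti-GBM mice at 71.2, 68.9 and 68.8 CPM for C1qa. The groups were again apart, with folds of 4.11 for C1qa, 4.23 for C1qb and 4.33 for C1qc.

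The shares of the chains stayed within a limited range, but they were not the same in all experiments. Of the summed CPM of the 3 chains, C1qa made up 32% to 43.4%, C1qb 26.5% to 38.3% and C1qc 27.1% to 33.8% over all 38 libraries. Within the anti-GBM experiment, Pearson's r of log2 CPM over its 14 libraries was 0.99 to 1.00 for each pair of chains, and these libraries span 2 disease states, so that any genes that differ between them correlate. In the 16 Adriamycin libraries the pairs had r of 0.83 to 0.94, and in the 8 slice libraries 0.97 to 1.00.

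Downstream in the classical pathway, C4b, which encodes the C4 protein that C1s cleaves, rose, and C2, the protease that joins C4 in the C3 convertase, rose by less. C4b was at 8.77, 10.8, 22.9 and 10 CPM in healthy and at 90.1, 45.0, 47.0 and 26.9 CPM in anti-GBM mice given vehicle. The lowest anti-GBM library, from mouse 8, was just above the highest healthy one, from mouse 3, and mouse 5 stood well above the other anti-GBM mice. The log2 fold change was 1.99 (SE 0.39, adjusted p = 0.00132), and 2.45 without mouse 3. C2 was at 14.7, 12.9, 20.6 and 21.9 CPM in healthy and at 30.7, 26.4, 34.5 and 32.5 CPM in anti-GBM mice. The groups did not overlap, and the log2 fold change was 0.83 (SE 0.15, adjusted p = 0.000742).

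C3, the component on which all pathways converge, had the largest change of the 9 genes. It was at 16, 28, 106 and 30.1 CPM in the healthy mice given vehicle and at 842, 780, 1290 and 728 CPM in the anti-GBM mice. The lowest anti-GBM library was several times the highest healthy one. The log2 fold change was 4.33 (SE 0.54, adjusted p = 5.69e-05), a 20.2-fold difference. Healthy mouse 3, the one with Adipoq at 17.2 CPM, was far above the other 3 healthy mice, and without it the log2 fold change was 5.25 (SE 0.42, adjusted p = 5.9e-06). In the FGF23 groups C3 was at 85.2, 37.7 and 37.6 CPM in healthy mice, the highest being mouse 9 with Adipoq at 26.5 CPM, and at 1158, 717 and 547 CPM in anti-GBM mice. The difference there was 15.1-fold (log2 fold change 3.91, SE 0.61, adjusted p = 0.000437), and the log2 fold change was 4.44 without mouse 9.

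Cfb encodes factor B, the protease of the alternative pathway convertase that joins C3b, and it was the only one of the 9 genes that was lower in disease. It was at 38.4, 38.3, 39.3 and 43.5 CPM in the healthy mice given vehicle and at 34.3, 28.5, 35.5 and 21.8 CPM in the anti-GBM mice. Every anti-GBM library was below every healthy one, as for 18.3% of all genes, and the spread among the anti-GBM mice was wider. The log2 fold change was -0.40 (SE 0.14, adjusted p = 0.032), and in the FGF23 groups it was -0.47 (SE 0.16, adjusted p = 0.0406), with 42.3, 36.3 and 35.7 CPM in healthy and 32.3, 27.2 and 22.8 CPM in anti-GBM mice. The call was not stable. It held under 5 of 13 alternatives with vehicle and 4 of 11 with FGF23, and it was lost when any 1 of healthy mice 1, 2, 3 and 4 or anti-GBM mice 6 and 8 was left out (adjusted p 0.073 to 0.134) and, in the FGF23 groups, without any 1 of healthy mice 9, 10 and 11 or anti-GBM mice 14 and 16 (adjusted p 0.0587 to 0.175). Without the libraries with high Adipoq, adjusted p was 0.0914 with vehicle and 0.201 with FGF23. The direction stayed the same in each of these fits.

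The receptors for the anaphylatoxins, the small fragments that attract and activate leukocytes, both rose. C3ar1, the receptor of C3a, was at 2.32, 3.90, 2.15 and 3.05 CPM in the healthy mice given vehicle and at 12.3, 11.6, 5.86 and 4.18 CPM in the anti-GBM mice. Anti-GBM mouse 8 was close to the healthy range and mice 5 and 6 were well above it, with a log2 fold change of 1.57 (SE 0.31, adjusted p = 0.00149). C5ar1, the receptor of C5a, was at 1.02, 0.713, 1.45 and 1.52 CPM in healthy mice, which rests on 15 to 29 reads per library, and at 5.73, 6.76, 5.34 and 5.11 CPM in anti-GBM mice. The anti-GBM mice were close together and all above the healthy ones, with a log2 fold change of 2.29 (SE 0.23, adjusted p = 1.2e-05).

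The same contrast in mice given FGF23 gave 8 genes higher and 1 lower, against 14.5% of all genes called higher and 12.7% called lower, with a median log2 fold change of 2.04 for the 9 genes and -0.02 for all genes. The log2 fold changes not yet given were 2.01 for C4b (SE 0.45, adjusted p = 0.00486, and 2.53 without mouse 9), 0.85 for C2 (SE 0.17, adjusted p = 0.00251), 2.11 for C3ar1 (SE 0.36, adjusted p = 0.00081) and 1.97 for C5ar1 (SE 0.27, adjusted p = 0.000154). For each of the 8 genes that rose, no healthy library reached the lowest anti-GBM library in either arm, as for 17% of all genes with vehicle and 22.5% with FGF23. The 8 calls held under all 13 alternatives with vehicle and all 11 with FGF23, the fits without the libraries with high Adipoq included.

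**Figure D2:**
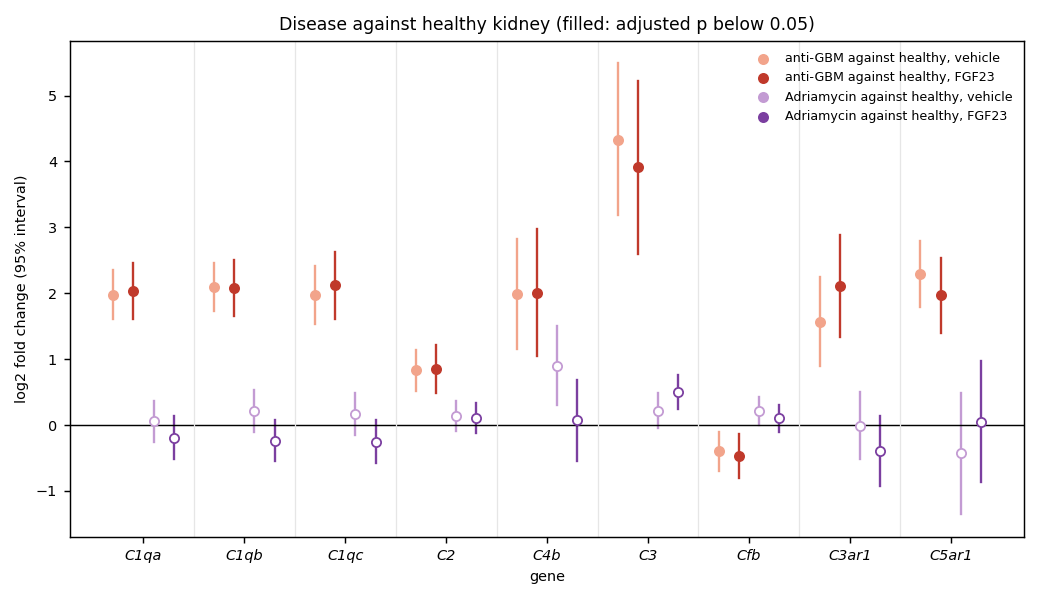
Log2 fold change of each gene between diseased and healthy kidney with its 95% interval, for anti-GBM and Adriamycin disease, each in mice given vehicle and in mice given FGF23. Filled points passed an adjusted p of 0.05. The anti-GBM points are all filled, from -0.47 for Cfb to 4.33 for C3, and the Adriamycin points are all open, from -0.43 to 0.90.

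Markers of other cell types moved with these genes in anti-GBM kidneys given vehicle. Of 10 macrophage and monocyte markers, 8 were called higher and none lower, and their summed level was 184 to 204 CPM in healthy and 265 to 487 CPM in anti-GBM mice, with no marker at 0 in a group. All 6 neutrophil markers were called higher, with a sum of 1.24 to 2.32 CPM against 9.52 to 20.2 CPM. Ptprc, the pan-leukocyte CD45 gene, and 3 of 3 fibroblast markers were also called higher. Of 5 proximal tubule markers 2 were called lower and none higher. Of 4 hepatocyte markers tested, 1 was called lower and none higher, and all 6 listed summed to 124 to 264 CPM in healthy and 89.8 to 189 CPM in anti-GBM mice, with Cps1 at 0 in the latter. The part of macrophages, neutrophils and fibroblasts in the gene changes was not tested.

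Each gene was also set against the geometric mean CPM of the 10 macrophage markers, which in the vehicle groups was 7.62 to 8.93 CPM for healthy and 15.1 to 30.5 CPM for anti-GBM kidneys. The ratio of C1qb to this mean was 1.72 to 2.2 in healthy and 2.65 to 3.86 in anti-GBM mice. C1qa, at 1.78 to 2.29 and 2.58 to 3.46, and C1qc, at 1.55 to 2.07 and 2.37 to 2.77, did not overlap either. The ratio of C3 was 2.10 to 11.8 against 25.5 to 66.4, and that of C5ar1 was 0.0899 to 0.185 against 0.209 to 0.338, so C1qb, C3 and C5ar1 did not overlap between the vehicle groups on this scale. C3ar1 did overlap, at 0.240 to 0.491 in healthy and 0.276 to 0.447 in anti-GBM mice. The ratios of Cfb, 4.40 to 5.28 in healthy and 0.933 to 1.83 in anti-GBM mice, were lower in disease, while those of C2 overlapped at 1.63 to 2.66 and 0.864 to 2.15. C4b overlapped too, at 1.15 to 2.56 and 1.47 to 3.29. The FGF23 groups differed from this for C1qc, C5ar1 and C2. C1qc overlapped in the FGF23 groups, at 1.49 to 2.12 in healthy and 2.07 to 2.62 in anti-GBM mice. C5ar1 overlapped there, at 0.118 to 0.172 in healthy and 0.155 to 0.178 in anti-GBM mice, and C2 was lower without overlap, at 1.49 to 2.18 against 0.855 to 0.961. C1qa (1.96 to 2.12 against 2.33 to 2.69), C1qb (1.74 to 2.37 against 2.43 to 2.76) and C3 (4.54 to 8.9 against 21.4 to 38.7) were again apart. The share of all genes that separate on this scale was not computed.

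**Figure D3:**
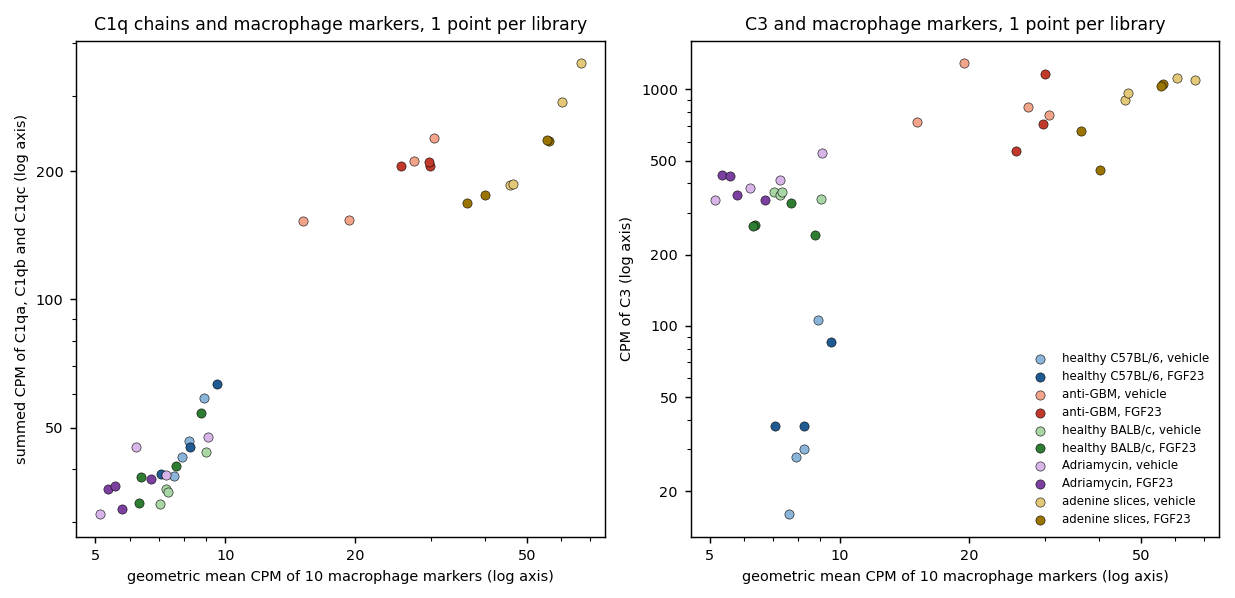
Summed CPM of the C1q chains (left) and CPM of C3 (right) against the geometric mean CPM of 10 macrophage markers, log axes, 1 point per library, coloured by group. The C1q sum and the macrophage mean are both highest in the anti-GBM and slice libraries, but not in a fixed proportion. In the vehicle groups the C1q sum averages 189 CPM in anti-GBM kidneys and 256 CPM in slices, with macrophage means averaging 23.1 and 54.9 CPM. C3 is at 16 to 106 CPM in healthy C57BL/6 mice and at 242 to 369 CPM in healthy BALB/c mice. The macrophage means in their vehicle groups are 7.62 to 8.93 and 7.05 to 9.03 CPM.

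FGF23 was then compared with vehicle within each condition. In anti-GBM kidneys none of the 9 genes was called, against 0.240% of all genes, and none had an unadjusted p below 0.05 in edgeR, against 12.6% of all genes. DESeq2 also called none. The median log2 fold change of the 9 was -0.11, and that of all genes was 0.00. The C1q chains were level with vehicle, at 0.11 for C1qa (95% interval -0.26 to 0.49), 0.12 for C1qb (-0.25 to 0.49) and 0.18 for C1qc (-0.27 to 0.62), which are log2 fold changes. C3 was at -0.17 (-1.26 to 0.91) and C4b at -0.11 (-0.96 to 0.73), both wide intervals.

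C3ar1 had the highest estimate with FGF23 in anti-GBM mice, 0.49 (95% interval -0.17 to 1.16, adjusted p = 0.503), with 11.6, 14.7 and 9.70 CPM beside the 12.3, 11.6, 5.86 and 4.18 CPM of the vehicle mice. The groups overlapped. C5ar1 was at 5.09, 4.6 and 4.55 CPM with FGF23, each below the lowest vehicle library at 5.11 CPM, but the log2 fold change was only -0.27 (-0.75 to 0.21, adjusted p = 0.617), and 4.10% of all genes had every FGF23 library below every vehicle library. The summed neutrophil markers were at 6.54 to 9.96 CPM with FGF23 and at 9.52 to 20.2 CPM with vehicle, so they overlapped. The macrophage sum overlapped too, at 409 to 421 CPM with FGF23 and 265 to 487 CPM with vehicle. Of the marker lists, only Ptprc and the T cell and fibroblast sums were higher with FGF23 without overlap. Ptprc was at 33.8 to 38.9 CPM with FGF23 and 12.9 to 30.8 CPM with vehicle, the T cell sum at 6.49 to 6.86 and 2.74 to 5.78 CPM, and the fibroblast sum at 589 to 719 and 417 to 530 CPM. Of all single genes, 5.11% had every FGF23 library above every vehicle library, and the share of sums that do so was not computed. Ptprc and the neutrophil, T cell and fibroblast markers were not called. The part of any of these lists in the C5ar1 and C3ar1 values was not tested. C2 was at 26.4, 25.3 and 24.6 CPM with FGF23, with a log2 fold change of -0.29 (-0.63 to 0.05), and mouse 6 of the vehicle group was as low at 26.4 CPM. Cfb was at -0.13 (-0.46 to 0.19).

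In healthy C57BL/6 kidneys none of the 9 genes was called between FGF23 and vehicle, and 0% of all genes were called by edgeR. None of the 9 had an unadjusted p below 0.05, against 4.34% of all genes, and DESeq2 called none. The estimates ran from -0.32 for C2 (95% interval -0.67 to 0.04) to 0.25 for C3 (-0.86 to 1.36), with a median of 0.04. The C3 estimate turned on the mice with high Adipoq, at 1.13 without vehicle mouse 3 (unadjusted p = 0.00907, not called), -0.23 without FGF23 mouse 9 and 0.64 without both. The difference between the FGF23 effects in anti-GBM and healthy mice, tested as an interaction, was called for none of the 9 genes, with 0 unadjusted p below 0.05 (8.3% of all genes), none called by DESeq2 and 0.0315% of all genes called. Its estimates ran from -0.42 for C3 (-1.97 to 1.13) to 0.54 for C3ar1 (-0.47 to 1.56). The 2 FGF23 comparisons and the 2 disease comparisons of this experiment share their groups, so they are not independent of each other.

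In Adriamycin nephropathy none of the 9 genes was called against healthy kidney in mice given vehicle, with 0.331% of all 16020 genes called. Their median log2 fold change was 0.17, and that of all genes was 0.00. Unadjusted p was below 0.05 for 2 of the 9, C4b and Cfb, against 8.27% of all genes, and DESeq2 called none. C4b was at 15.2, 17.6, 12.9 and 13.8 CPM in healthy and at 36.9, 27.2, 26.7 and 20.3 CPM in Adriamycin mice. All Adriamycin libraries were above all healthy ones, as for 2.84% of all genes, with a log2 fold change of 0.90 (SE 0.29, unadjusted p = 0.00607, adjusted p = 0.319). Over its alternatives the adjusted p ranged from 0.0748 to 0.694. Cfb was at 27.5, 28.1, 24.9 and 25.8 CPM in healthy and at 30.8, 25.7, 31.8 and 35 CPM in Adriamycin mice, a difference of 0.21 in log2 (SE 0.10, adjusted p = 0.597) opposite in sign to that in anti-GBM disease.

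The C1q chains were level between Adriamycin and healthy kidneys given vehicle, with log2 fold changes of 0.06 for C1qa (95% interval -0.26 to 0.37), 0.21 for C1qb (-0.10 to 0.53) and 0.17 for C1qc (-0.15 to 0.48). These intervals leave out a change of the size seen in anti-GBM mice. C3 was at 344, 369, 359 and 368 CPM in healthy and at 381, 537, 412 and 341 CPM in Adriamycin mice, with an estimate of 0.21 (-0.05 to 0.48). C3ar1 was at -0.01 (-0.52 to 0.50), and C5ar1, with 3 to 20 reads per library in these 8 mice, was at -0.43 (-1.35 to 0.49). No macrophage, neutrophil, T cell or B cell marker was called in this contrast, and the macrophage sum was 234 to 278 CPM in healthy and 185 to 255 CPM in Adriamycin mice.

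In the mice given FGF23, again none of the 9 genes was called between Adriamycin and healthy kidney, with 0.699% of all genes called, but C3 came close to the threshold. It was at 242, 266, 265 and 332 CPM in healthy and at 358, 434, 429 and 340 CPM in Adriamycin mice given FGF23. The Adriamycin libraries were all above the healthy ones, as for 3.06% of all genes, and healthy mouse 12 was nearest to them. The log2 fold change was 0.50 (SE 0.12, unadjusted p = 0.000997, adjusted p = 0.0866), the only one of the 9 with an unadjusted p below 0.05, against 12.7% of all genes. C3 was called by DESeq2 (adjusted p = 0.00737), with no filter on low counts (adjusted p = 0.0316) and without healthy mouse 12 (log2 fold change 0.60, adjusted p = 0.034). Without the libraries with high Adipoq it had an adjusted p of 0.279. C4b was at 0.08 (SE 0.29), and at 0.54 (adjusted p = 0.312) without healthy mouse 9. The median of the 9 genes was 0.05 and that of all genes -0.01.

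FGF23 against vehicle called none of the 9 genes in Adriamycin mice, with 0.0375% of all genes called, and none by DESeq2. C4b alone had an unadjusted p below 0.05, against 5.69% of all genes. It was at 16.1, 16.2, 12.9 and 26.7 CPM with FGF23 beside 36.9, 27.2, 26.7 and 20.3 CPM with vehicle, and FGF23 mouse 16 overlapped the vehicle group (log2 fold change -0.64, SE 0.29, adjusted p = 0.862). In healthy BALB/c mice edgeR called none of the 9 genes and 0% of all genes, and DESeq2 called none of the 9. C3 alone had an unadjusted p below 0.05, at 0.0071, against 6.69% of all genes below that threshold, and was at -0.38 (SE 0.12, adjusted p = 0.688), and at -0.29 without the libraries with high Adipoq. C4b was at 0.18 (SE 0.29), and at -0.26 without those libraries. All 4 FGF23 mice, at 242 to 332 CPM, were below the 4 vehicle mice, at 344 to 369 CPM, as for 1.53% of all genes. The C1q chains had estimates of 0.14 to 0.22 in the healthy mice and of -0.28 to -0.11 in the Adriamycin mice.

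The interaction of FGF23 with Adriamycin was called for none of the 9 genes and for 0% of all genes in edgeR, and DESeq2 called none of the 9. Against 5.11% of all genes, C1qb alone had an unadjusted p below 0.05 (interaction estimate -0.45, 95% interval -0.89 to -0.01, adjusted p = 0.967), and the median of the 9 estimates was -0.25. Healthy FGF23 mouse 9, with Adipoq at 38.1 CPM, had the highest C1qb of its group at 16 CPM, while the other 3 were at 10.9, 9.55 and 10.9 CPM. It also had the highest C4b, at 30.7 CPM beside 12 to 12.6 CPM in the other 3. Without this library the interaction estimate was -0.27 for C1qb and -0.37 for C4b, against -0.82 for C4b with it.

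**Figure D4:**
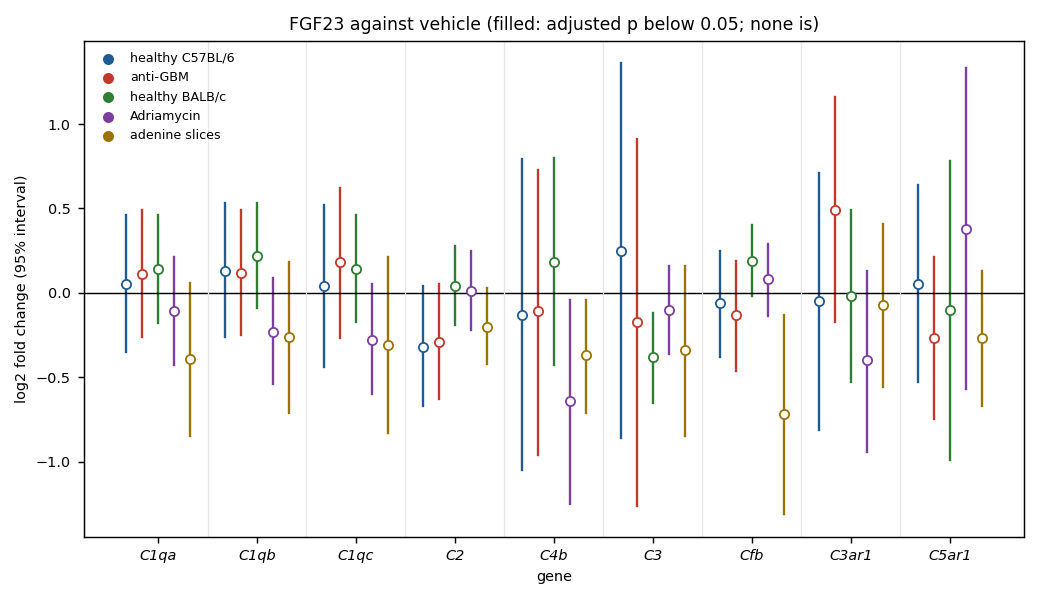
Log2 fold change of each gene between FGF23 and vehicle with its 95% interval in 5 settings. All points are open, since none passed an adjusted p of 0.05. The lowest points are those of Cfb in the slices, at -0.72, and C4b in Adriamycin mice, at -0.64, and among the widest intervals are those of C3 in the C57BL/6 mice and C5ar1 in the BALB/c mice.

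In the adenine slices edgeR called none of the 9 genes and 0% of all 15090 genes, and DESeq2 called none of the 9. All 9 estimates were below 0, with a median of -0.31 against -0.01 for all genes, and 2 of the 9 had an unadjusted p below 0.05, against 4.89% of all genes. A fit that takes same-numbered slices as pairs is given in the closing section, and it also called none of the 9. Cfb was at 5.23, 12.7, 5.55 and 9.07 CPM with vehicle and at 5.09, 4.86, 4.67 and 5.31 CPM with FGF23. The FGF23 slices were close together, and vehicle slices 2 and 4 were well above them, with a log2 fold change of -0.72 (SE 0.27, adjusted p = 0.849). Without vehicle slice 2 it was -0.41. C4b was at 86.1, 65.7, 92.7 and 70.1 CPM with vehicle and at 48.1, 71.1, 53.0 and 69.9 CPM with FGF23, a difference of -0.37 (SE 0.15, adjusted p = 0.849). The groups overlapped.

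C2 was the only one of the 9 genes for which the slice groups did not overlap, as for 1.72% of all genes in that direction. It was at 14.5, 15.8, 14.5 and 15.0 CPM with vehicle and at 12.2, 13.6, 12.9 and 13.4 CPM with FGF23, with a log2 fold change of -0.20 (SE 0.10, adjusted p = 0.849). C3 was at 902, 1099, 965 and 1120 CPM with vehicle and at 665, 1058, 456 and 1037 CPM with FGF23, so that FGF23 slices 1 and 3 were low and slices 2 and 4 were within the vehicle range. C3ar1 was at 33.8, 71.5, 40.2 and 74.3 CPM with FGF23, with slices 1 and 3 below and slices 2 and 4 above the narrow vehicle range of 57.3 to 58.9 CPM. The macrophage markers summed to 746 to 1097 CPM with vehicle and 597 to 828 CPM with FGF23, and none was called. Their part in the negative estimates was not tested.

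The slices also differed from the in vivo kidneys in the balance of the genes, which is described here without a test. Strain, age and disease differ, the slices were kept in culture, and the BALB/c mice differ from the slice mice in sex too. The ratio of C3ar1 to the macrophage mean was 0.871 to 1.34 over the 8 slice libraries and at most 0.495 in the other 30 libraries. C5ar1 had ratios of 0.432 to 0.544 in the slices and at most 0.338 elsewhere. Cfb had ratios of 0.0862 to 0.190 in the slices and of at least 0.893 elsewhere, and C1qb, at 1.28 to 1.62, was at the low end of the 1.29 to 3.86 seen elsewhere.

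Of 42 other complement genes, grouped by role, 31 were tested in the anti-GBM experiment. With vehicle 15 were called higher and 3 lower in anti-GBM kidneys, against 19.4% of all genes higher and 20.4% lower. With FGF23 15 were called higher and 2 lower, against 14.5% and 12.7% of all genes, with median log2 fold changes of 0.95 in both arms. Hc, described below, was among the genes called higher with FGF23. This list, too, was chosen with earlier results of these data known. Among 9 initiation genes tested, 4 rose and 1 fell with vehicle. C1ra, the protease that activates C1s, was at 0.95 (SE 0.11, adjusted p = 2.39e-05), and Masp2, a protease of the lectin pathway, was the one that fell, at -2.39 (SE 0.57, adjusted p = 0.00456). C4a, the near-identical neighbour of C4b, was at -0.95 (SE 0.55, adjusted p = 0.184).

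Of the other alternative pathway genes, Cfp, encoding properdin, which stabilises the convertase, rose by 1.80 (SE 0.33, adjusted p = 0.000786). Cfd, encoding factor D, a protease abundant in adipocytes, was at -1.94 (SE 1.35, adjusted p = 0.273), and its highest values, 75.5 and 47.3 CPM, were in healthy mice 3 and 9. Among 6 terminal genes 2 rose with vehicle, C6 and C7, both parts of the membrane attack complex. Hc, which encodes C5, had 0 to 5 reads in the healthy vehicle mice and 3, 31, 4 and 5 reads in the anti-GBM mice (log2 fold change 2.24, SE 0.91, adjusted p = 0.0654). In the FGF23 groups Hc had 1 to 2 reads in healthy and 66, 18 and 23 reads in anti-GBM mice (4.48, SE 1.05, adjusted p = 0.00637), a fitted change that rests on few reads. Healthy libraries had too few reads for the count filter, so Hc entered the test only through anti-GBM libraries, where it was high. No conclusion is drawn from its call.

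Of 9 regulators tested, 4 rose and 1 fell with vehicle. Cfi, the protease that cuts C3b and C4b, rose by 2.61 (SE 0.26, adjusted p = 8.47e-06), Clu, encoding clusterin, by 1.86 (SE 0.21, adjusted p = 2.57e-05) and Serping1, the C1 inhibitor, by 1.3 (SE 0.14, adjusted p = 2.37e-05). Cd55, a membrane regulator that dissociates convertases, fell by 0.71 (SE 0.18, adjusted p = 0.00693). Of 5 receptor genes, 4 rose, among them Itgam, the alpha chain of complement receptor CR3, by 2.93 (SE 0.30, adjusted p = 1.07e-05) and C5ar2, a receptor of C5a, by 1.37 (SE 0.38, adjusted p = 0.0114). Cr2, a receptor of C3 fragments on B cells, fell by 0.97 (SE 0.28, adjusted p = 0.0131).

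For FGF23 against vehicle none of these genes was called by edgeR in any of the 5 settings, of 31 tested in C57BL/6 mice, 30 in BALB/c mice and 23 in the slices. Unadjusted p was below 0.05 for 2 in anti-GBM kidneys, 0 in healthy C57BL/6 kidneys, 1 in healthy BALB/c kidneys, 2 in Adriamycin kidneys and 3 in the slices, beside the shares of all genes given above for these comparisons. In the slices 20 of the 23 estimates were below 0, with a median of -0.19. In Adriamycin against healthy kidney none of 30 was called either, with 6 unadjusted p below 0.05 with vehicle and 5 with FGF23, against 8.27% and 12.7% of all genes.

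**Figure D5:**
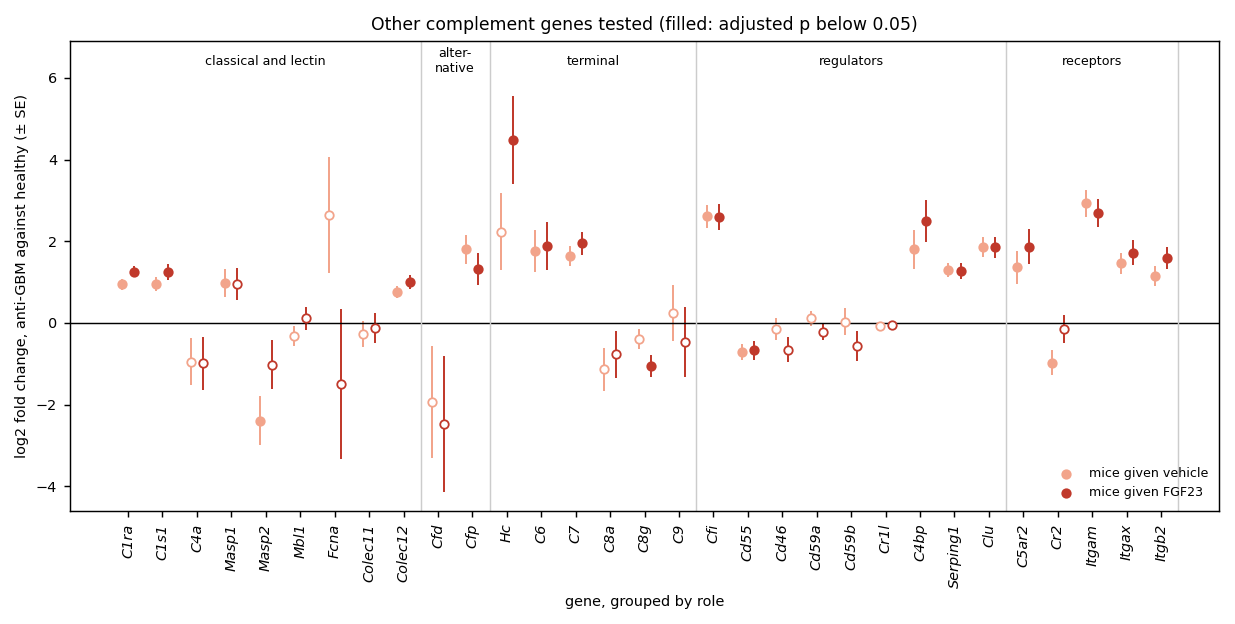
Log2 fold change (± SE) of the 31 other complement genes tested, anti-GBM against healthy kidney, in mice given vehicle and in mice given FGF23, grouped by role. Filled points passed an adjusted p of 0.05. Most filled points are above 0 in both arms, and the highest is Hc at 4.48 with FGF23. Hc passed the count filter only through anti-GBM libraries.

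The genes whose log2 CPM was most like that of each of the 9 were ranked by Pearson's r over the 30 in vivo libraries, after subtracting the mean of each experiment, among 15244 genes. The 3 C1q chains were each most like Ctss, encoding cathepsin S, a protease of antigen-presenting cells, with r of 0.971, 0.972 and 0.982 for C1qa, C1qb and C1qc. Next came Lbp and Fcgr3 for C1qa, Fcgr3 and Ms4a6d for C1qb, and Fcgr1 and Laptm5 for C1qc. C3 was most like Sox9, a transcription factor of injured tubules (0.963), then Plekho1 and Ifngr1. C4b was most like Lgals3bp (0.895), Ms4a6d and Pirb, and C2 most like Rnase4 (0.929), Cotl1 and Ctsz.

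C3ar1 was most like Pld4 (0.938), Lpcat2 and Pik3ap1, and C5ar1 most like Slc11a1 (0.914), an ion transporter of phagocytes, then Tgfbi and Ifi207. Cfb was most like Ap2a2 (0.882), Ildr2 and Tmem56. All genes of a library share its scale factor, and most of the variation is between anti-GBM and healthy kidneys. Within the Adriamycin experiment alone, r was 0.69, 0.78 and 0.87 for the chains with Ctss, 0.82 for C3 with Sox9, and -0.17 and 0.21 for C3 with Plekho1 and Ifngr1.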

How the data were processed

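Kidney mRNA was sequenced from stranded libraries, 1 per mouse or slice culture. The authors demultiplexed with bcl2fastq 2.20.0, checked reads with FastQC 0.11.8, aligned them to GRCm38 with STAR 2.7.9a and assigned them to Ensembl genes with featureCounts 1.5.1. The deposited values are raw read counts, and the handling of strand, multi-mapping and overlapping reads is not given in the sources used here. Columns of the 30 in vivo libraries were matched to groups through the headers of the study's tables that hold the same counts, and those of the slices by name. All columns were used.

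Each experiment was fitted separately with edgeR 4.0.16 (R 4.3.3, quasi-likelihood test, TMM, filterByExpr with a minimum count of 10, group as the only term), over 15859, 16020 and 15090 genes. P-values were adjusted by Benjamini-Hochberg over all genes of a comparison, and genes with an adjusted p below 0.05 were called. Intervals are 95% intervals of the fit. Log2 CPM had a prior count of 2. Exon lengths and overlaps come from a GRCm38 annotation. Total counts limit precision most for C5ar1. Alternatives were DESeq2 1.42.0, relative log expression (RLE) size factors, no count filter, only the 2 groups compared, adjustment over the FGF23 comparisons of an experiment, a replicate block for the slices, leaving out each library, and, chosen after the data were seen, leaving out the libraries with Adipoq above 5 CPM. The fits were tested on simulated data.

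The 9 genes and the marker and complement lists were chosen with earlier results of these data known. Text names all 9 genes, of the other complement genes up to 5 called ones with the smallest p per comparison, and always Hc, Cfd, Cfp, C5ar2, Itgam and C4a. Cd55, Cr2, Masp2 and C6 were named after their values were seen. A gene of the complement list is not reported here and is left out of its counts.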

Additional observations from a re-analysis of the deposited data

Results flagged for a closer look

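For 72 combinations of gene and group with 4 libraries, the highest or lowest library was tested for its distance from the others (Dixon's test at the 95% level, which chance alone meets in about 1 of 20). Groups of 3 were not tested. There were 4 such values. C3 at 106 CPM and C4b at 22.9 CPM both came from healthy C57BL/6 vehicle mouse 3, whose other group members were at 16 to 30.1 and 8.77 to 10.8 CPM. C4b at 30.7 CPM came from healthy BALB/c FGF23 mouse 9, with the others at 12 to 12.6 CPM. Both mice were among the 5 with Adipoq above 5 CPM, and the part of adipose tissue in these values was not tested. C3ar1 at 3.35 CPM came from Adriamycin vehicle mouse 6, with the others at 1.85 to 1.94 CPM.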

How the results depend on the processing

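Of 1403 single-gene values recomputed under an alternative, 1374 kept their side of the threshold. Their direction stayed the same or, for values not called, changed by no more than the SE of the main fit. Of the others, 15 lost their call, all of them Cfb in anti-GBM disease, and 3 gained one, all of them C3 in Adriamycin mice given FGF23. Another 11, not called in either fit, changed direction by more than that SE, and 0 reversed a call. For Adriamycin against healthy kidney with FGF23, 1 of the 9 genes was called with DESeq2 and 1 with no count filter, and 0 to 1 when single libraries were left out. The replicate block for the slices left 0 of the 9 genes called and gave 5 of them, C1qa, C1qc, C3, Cfb and C5ar1, an unadjusted p below 0.05 where the fit without it gave 2, and all genes with an unadjusted p below 0.05 went from 738 to 912, with 0 called. Same-numbered slices had correlated deviations of -0.105 to 0.112 and other pairs of -0.161 to 0.124, with 3 of 4 same-number pairs and 1 of 12 others above 0.1. Since slice pair 3 was below 0 and not every slice correlated best with its own number, the main fit did not take the numbers as paired. Correlations between so few cultures cannot exclude pairing. Vehicle slice 3, whose counts were close to those of vehicle slice 1, correlated best with FGF23 slice 1, at 0.124. Between same-numbered slices 7 of the 9 genes were lower with FGF23 in all 4. The share of all genes that did so was not computed, so nothing is concluded from this count. The genes are also not independent, with r of 0.97 to 1.00 between the C1q chains in the slices. No paired analysis was possible because the columns of the anti-GBM and Adriamycin experiments carry no replicate number shared between groups. RLE size factors changed library scales by at most 1.02%.

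Calls over all genes depended more on the settings, and the cause was not tested. FGF23 in anti-GBM mice gave 38 calls, 25 with adjustment over the FGF23 comparisons, 60 with no filter, 153 with DESeq2, 12 with only the 2 groups compared, 26 without the libraries with high Adipoq and 12 to 49 with single libraries left out. Its interaction gave 5, against 8, 29 and 44 with the first 3 of these, 3 with RLE, 0 without high Adipoq and 0 to 14. Anti-GBM disease with FGF23 fell from 4310 to 2797 without high Adipoq. Adriamycin disease gave 53 with vehicle (98 no filter, 155 DESeq2, 19 only 2 groups, 12 without high Adipoq, 10 to 100 leaving 1 out) and 112 with FGF23 (263 DESeq2, 43 only 2 groups, 21 to 119). FGF23 in Adriamycin mice gave 6 (2 combined adjustment, 21 no filter, 35 DESeq2, 3 only 2 groups, 1 to 12). Where edgeR called 0, DESeq2 called 16 in healthy BALB/c mice, 4 for the Adriamycin interaction and 2 in slices, and no filter gave 1, 1 and 2. Healthy BALB/c mice gave 1 without high Adipoq and up to 4 with 1 library left out, healthy C57BL/6 mice up to 1. Depth limited C5ar1 most, with 3 to 20 reads in the BALB/c libraries.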
